A study of Mus musculus with 7 samples.

Results

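The sites described here are the open chromatin sites of the X chromosome that, in female wild-type neural progenitor cells (NPC), were read almost entirely from a single X. They were selected on the allele counts of the wild-type NPC list. A peak on chrX qualified if at least 10 of its reads could be given to an allele and if the first-listed allele held under 5% of them. Of 1434 chrX peaks among 41126 peaks in all, 833 had at least 10 allelic reads and 463 of those met the limit. The other 370 comprised 221 peaks read from both alleles (each allele with at least 20% of the allelic reads), 141 between these classes and 8 with more than 80% first-allele reads. The remaining 601 chrX peaks had fewer than 10 allelic reads and could not be classed.

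ATAC-seq marks open chromatin by the places where the Tn5 transposase inserts sequencing adapters. The samples, 1 per group, were NPC of the sgdgb2 line with the deltaFT deletion, wild-type NPC of the C2 line and mESC of the F1216 line, all female and from a 129S1 x Cast:EiJ F1 cross. The other 4 were male J1 embryonic stem cells (TXY) with an inducible Xist on their X, either lacking its A repeat (TXY deltaRepA) or intact (TXY WT), each given 2 ug/mL doxycycline for 48 hours (plus dox) or left untreated (no dox). The deltaFT deletion removes the boundary region that holds the Dxz4 macrosatellite. Each female group is a single cell line, so a difference between lines cannot be told apart from a difference between genotypes or cell types.

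In female mammals each cell silences an X chromosome during differentiation. The long non-coding RNA Xist coats that chromosome, its A repeat is required for gene silencing, and regulatory sites on the silenced X lose accessibility while the same sites on the active X stay open. In mouse embryonic stem cells this has not yet happened and every X is active. Some genes escape silencing, and sites near them can be open on both X chromosomes. Strains are not named for the allele columns, which are therefore referred to by their order, and in both NPC lines the X of the first-listed allele was the less accessible.

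The wild-type NPC list held 11014387 reads in peaks, of which 38.5% were allelic. The deltaFT NPC list held 11085592 and the mESC list 6490181. These 3 lists contain peaks reproducible between 2 libraries at an irreproducible discovery rate (IDR) under 0.05. For each NPC line the lists of the separate libraries were identical on chrX (7114 rows in wild type), so they give no spread between libraries there. The mESC sample carries a source label that reads as progenitors, against its title. All intervals given are exact 95% Clopper-Pearson intervals, cover counting error alone and say nothing of the spread between cell lines. Positions are 1-based on mm9. No gene annotation or genome of that build was used here, so sites are named by position.

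The allelic shares of chrX sites in wild-type NPC piled up near 0. The 463 closed sites filled the lowest class of 5 percentage points, whereas the next class, from 5% to 10%, held 73 sites and that from 10% to 20% held 68. On the other side, 6 chrX sites had under 5% reads from the second-listed allele. Among 33065 autosomal peaks with at least 10 allelic reads, 207 (0.626%) had under 5% first-allele reads and 181 under 5% second-allele reads. These values chose the sites and are a description.

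**Figure D1:**
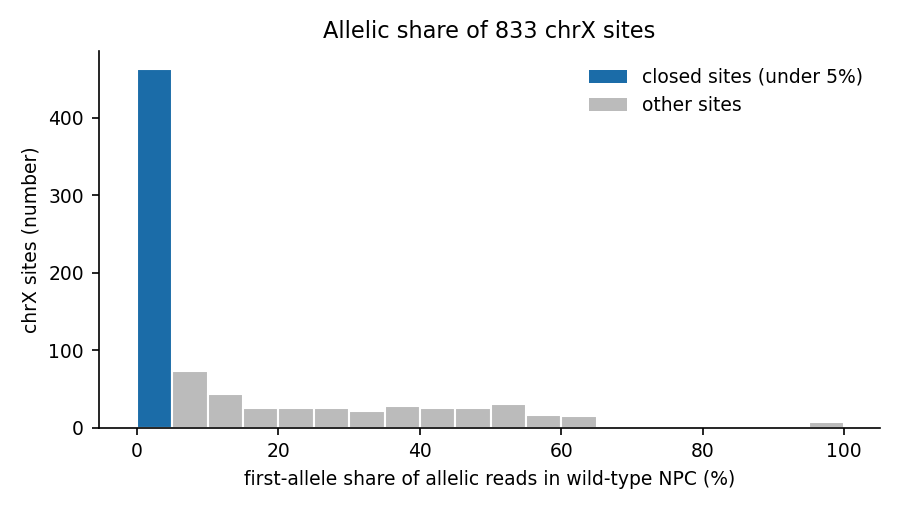
Number of chrX sites (vertical axis) by first-allele share of their allelic reads in wild-type NPC in classes of 5 percentage points (horizontal axis, percent), for the 833 chrX sites with at least 10 allelic reads. The 463 closed sites stand in the lowest class, next to 73 sites from 5% to 10%, and all but 14 of the rest lie below 65%.

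At the limit itself the classes ran into each other. Just inside it, the site at chrX:147451445-147452071 had 4 first-allele and 77 second-allele reads (4.94%), and that at chrX:96394403-96394918 had 2 and 39 (4.88%). The next 3 inside, at chrX:99137785-99138134, chrX:97924306-97924554 and chrX:70732138-70732639, each stood at 4.76%. Just outside it, chrX:54004848-54005007 and chrX:139779377-139779634 had 1 and 19 reads each, exactly at the limit. The sites at chrX:70838597-70838787, chrX:57400473-57401178 and chrX:140053380-140053673 had 2 and 37 each (5.13%). A single read separates such neighbours. Of the closed sites 24 lay between 4% and 5%, and 324 lay under 1%.

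By median the closed sites were weaker than sites read from both alleles and than autosomal peaks. They had a median of 141 raw reads (quartiles 83 and 274.5, range 18 to 1365) over a median length of 414 bp. Sites read from both alleles had a median of 276 raw reads over 425 bp, and autosomal peaks with at least 10 allelic reads had 182 over 423 bp. Per 100 bp the medians were 36.9 reads in closed sites, 62.6 in sites read from both alleles and 45.3 in autosomal peaks.

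The second-listed allele taken alone was read about as deeply in each class. Its median was 45 reads in closed sites (quartiles 23 and 89.5), 41 in sites read from both alleles and 37 in autosomal peaks. The requirement of 10 allelic reads bears harder on closed sites, which must draw them from a single allele, so these medians are not free of the selection.

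Closed sites became rarer among the strongest peaks. They made up 55.7% (48.0% to 63.2%) of the 176 usable chrX sites with under 75 raw reads, 64.1% (57.5% to 70.3%) of those from 75 up to 150, 59.5% (52.3% to 66.4%) of those from 150 up to 300 and 43.4% (36.8% to 50.1%) of the 226 with at least 300. Sites read from both alleles made up 44.2% of that last class and 17.3% to 23.5% of the others. Of the 100 chrX peaks with most raw reads, 26 were closed sites, 57 were read from both alleles and 12 could not be classed.

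Residual reads from the first-listed X were few. Over all closed sites there were 352 first-allele and 33085 second-allele reads, a pooled share of 1.05% (0.946% to 1.17%). No first-allele read was found at 305 sites (65.9%). For a site with the median of 32 allelic reads among these, a count of 0 allows a share of up to 9.38%, so most single zeros say little. Pooled over the 305 sites, 0 of 15002 reads allows up to 0.0200%, but the sites were picked for that 0. The deepest such site, with 508 reads, allows up to 0.591%. These limits take 3 as the count behind a 0 and are lower than the exact upper bounds given for single sites, which is 0.724% for that site.

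A site with 10 to 19 allelic reads met the limit only with no first-allele read, which was the case for 89 sites. Among the 103 sites with at least 100 allelic reads the rule allowed several, and 36 (35.0%) had none. The pooled share was 0.906% (0.664% to 1.21%) in sites with 20 to 49 allelic reads, 1.24% (1.01% to 1.502%) in those with 50 to 99 and 1.08% (0.940% to 1.24%) in those with at least 100. The intervals of these classes overlapped. Since the limit chose the sites and capped the share at every depth, the pooled shares cannot show whether residual reads depend on depth.

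The residual reads often came in even numbers. A single first-allele read was found at 53 sites and 2 reads at 76; 3 reads were found at 6 sites and 4 at 10. Even counts above 0 occurred at 92 sites and odd counts at 66. Autosomal peaks showed the same with few reads, 140 with 2 first-allele reads against 70 with 1, and 157 with 2 second-allele reads against 67 with 1. The libraries were sequenced as pairs of reads. No source used here says whether both reads of a pair were counted. If so, the number of independent fragments is below the number of reads and the intervals are too narrow.

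**Figure D2:**
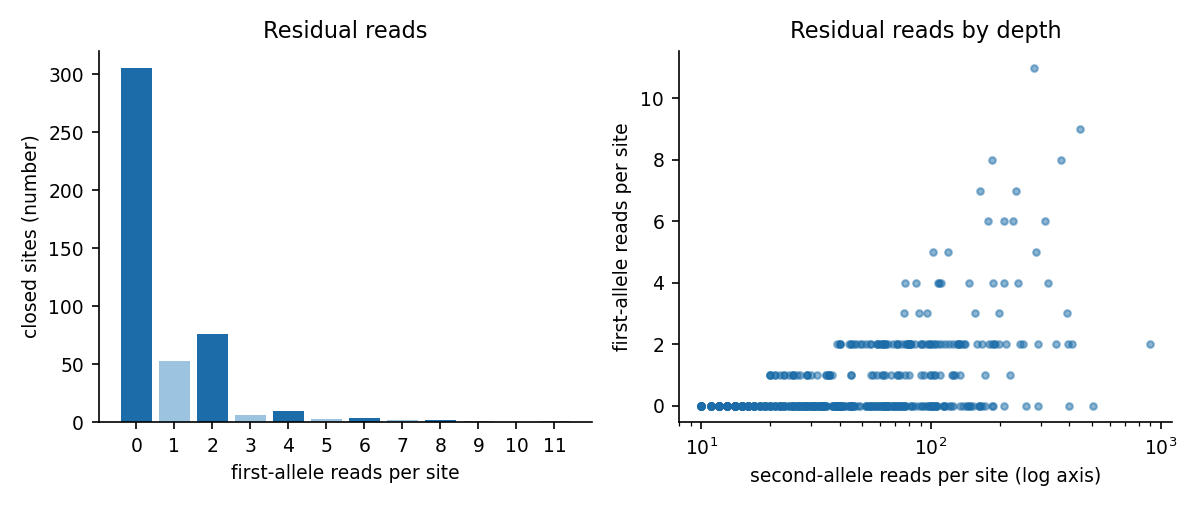
Left, number of closed sites (vertical axis) by first-allele reads per site in wild-type NPC (horizontal axis), with even numbers in the darker shade. Right, first-allele reads (vertical axis) against second-allele reads on a log axis (horizontal axis), 1 point per closed site. The 305 sites with no first-allele read dominate, 2 reads (76 sites) are more common than 1 (53 sites), and no site exceeds 11.

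The 10 closed sites with most raw reads show what closure looked like where depth was good. The strongest, at chrX:7769514-7770230, had 1365 raw reads, but only 42 allelic ones, 2 of the first-listed allele and 40 of the second-listed. The next, at chrX:161418199-161418861, had 1344 raw reads and 0 and 52 allelic reads. Raw depth and allelic depth are thus different things, and the share at these sites is known only to within 16.2% and 6.85% at the upper bound.

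Better resolved were sites rich in allelic reads. At chrX:46641174-46641796 there were 12 first-allele and 402 second-allele reads in deltaFT NPC (2.90%), against 0 and 508 in wild-type NPC (upper bound 0.724%), and 124 and 101 in mESC (55.1%). At chrX:93151974-93152646 there were 24 and 613 in deltaFT NPC (3.77%), against 2 and 894 in wild type (0.223%, 0.0270% to 0.804%), and 297 and 382 in mESC (43.7%). At chrX:53708943-53709455 there were 22 and 379 in deltaFT NPC (5.49%), against 2 and 395 in wild type (0.504%), and 154 and 208 in mESC (42.5%). Each was therefore read almost from 1 allele in progenitors of both lines and from both alleles in stem cells.

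At 4 more of the 10 there were at most 4 first-allele reads in either line of NPC. For chrX:20527641-20528375 the counts were 4 and 211 reads in deltaFT NPC, against 4 and 240 in wild-type NPC, and 92 and 120 in mESC. Counts at chrX:103381998-103382481 were 4 and 205 in deltaFT NPC, against 4 and 207 in wild type, and 135 and 175 in mESC. Those at chrX:92906747-92907624 were 4 and 161 in deltaFT NPC, against 0 and 164 in wild type, and 70 and 88 in mESC. The fourth, at chrX:83021294-83022527, had 1 and 67 against 2 and 72, with 58 and 59 in mESC. All 4 were also found in each of the TXY lists.

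The remaining site of the 10 differed in its stem cell peaks. The site at chrX:142283696-142284610, with 977 raw reads in wild-type NPC, had no peak in the mESC IDR list or any TXY list. It did overlap a peak in the mESC library lists, so it was not without a stem cell peak. The site had 23 and 390 allelic reads in deltaFT NPC (5.57%, 3.56% to 8.24%), against 0 and 400 in wild type. The deltaFT interval lies above the wild-type upper bound of 0.918%, but the low wild-type value chose the site. Among sites without a first-allele read, chrX:20002287-20003414 came next in strength after those above and had 727 raw reads but 0 and 20 allelic reads.

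Closed sites lay next to each other along the chromosome. The nearest classed neighbour of a closed site was itself closed in 352 of 463 cases (76.0%, 71.9% to 79.8%), while 463 of all 833 classed sites (55.6%) were closed. For sites read from both alleles the nearest neighbour was closed in 29 of 221 (13.1%, 8.97% to 18.3%). The median distance from a closed site to its nearest classed neighbour was 45.4 kb and to the nearest site read from both alleles 563 kb. A site read from both alleles lay within 100 kb of 57 closed sites (12.3%), within 50 kb of 29 and within 10 kb of 5. Neighbouring peaks can share a regulatory unit, so these shares describe the chromosome and are no count of independent events.

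The 5 pairs of unlike sites within 10 kb had 10 to 46 allelic reads a site. At the strongest of them, chrX:133283831-133284262 had 0 and 26 reads, and 6.195 kb away chrX:133290043-133290440 had 5 and 11 (31.3%). The pair 4.29 kb apart had 0 and 14 reads at chrX:148582064-148582289, and 6 and 4 at chrX:148586374-148586558.

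Unbroken stretches of closed sites reached several megabases. The 463 sites formed 115 stretches uninterrupted by another classed site, of which 32 held a single site and 11 held at least 10, with 147 sites between them. By length the longest spanned 9.32 Mb but held only 4 sites. The stretch with most sites had 25 over 3.36 Mb at chrX:8469441-11829424, with 16 first-allele and 1434 second-allele reads. A stretch of 17 sites lay at chrX:68222265-70474303 with 16 and 1181 reads. Stretches of 14 sites each lay at chrX:73119244-75056612 and chrX:133710405-136219799, with 6 and 802 and with 8 and 1084 reads. Between 4 and 13 unclassed peaks lay inside each of these 4 stretches, so they are unbroken only among sites that could be classed.

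In the other lines these stretches kept the pattern of closed sites in general. In deltaFT NPC their pooled first-allele shares were 3.38%, 3.10%, 1.61% and 2.71% in that order, on 13, 14, 7 and 10 usable sites. In mESC 7, 10, 3 and 4 sites were usable, with medians of 49.2%, 50.3%, 47.5% and 48.5%.

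By windows of 10 Mb the share of closed sites varied among windows with at least 20 classed sites. It was highest at 80 to 90 Mb, 18 of 23 (78.3%, 56.3% to 92.5%), at 60 to 70 Mb, 25 of 32 (78.1%), and at 90 to 100 Mb, 72 of 97 (74.2%, 64.3% to 82.6%). It was lowest beyond 160 Mb, 18 of 71 (25.4%, 15.8% to 37.1%), where 39 sites were read from both alleles. At 20 to 30 Mb it was 40.6% and at 150 to 160 Mb 42.9%. The window at 110 to 120 Mb held 4 classed sites, all closed, and that at 120 to 130 Mb held 4, of which 1 was closed.

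In mESC the closed sites that could be measured were open on both X chromosomes. The mESC IDR list held a peak at 166 of the 463 sites (35.9%, 31.5% to 40.4%), next to 33.6% of all wild-type NPC peaks with at least 10 allelic reads, 57.5% of chrX sites read from both alleles in NPC and 33.3% of autosomal peaks. Of the 165 with at least 10 allelic reads in mESC, 163 (98.8%, 95.7% to 99.9%) were read from both alleles, next to 98.5% of all such peaks. The first-allele share in mESC had a median of 48.98% (interval from order statistics 47.7% to 50.2%, quartiles 44.4% and 53.8%). The pooled share of these 165 sites was 1.21% in wild-type NPC, on 217 of 17884 reads, against 48.9% (48.3% to 49.6%) in mESC. An mESC peak matched to neighbouring sites was counted for each of them. The low share in NPC was thus not present at these sites in mESC, while the other 298 sites gave no mESC share.

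The exceptions were few. The lowest, at chrX:94265147-94265515, had 0 and 43 reads in wild-type NPC, against 5 and 31 in mESC (13.9%, 4.67% to 29.5%). The next, at chrX:142187963-142188203, had 2 and 45 reads in wild-type NPC, against 7 and 42 in mESC (14.3%, 5.94% to 27.2%). The first 2 had no first-allele read in deltaFT NPC, with 81 and 32 second-allele reads. The third lowest, at chrX:98624505-98625316, had 0 and 27 in wild-type NPC, against 8 and 18 in mESC (30.8%). At the other end the sites at chrX:151752640-151752827, chrX:99044580-99045067 and chrX:50723401-50724029 had no first-allele read in wild-type NPC, against shares of 76.6%, 75.8% and 72.5% in mESC.

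**Figure D3:**
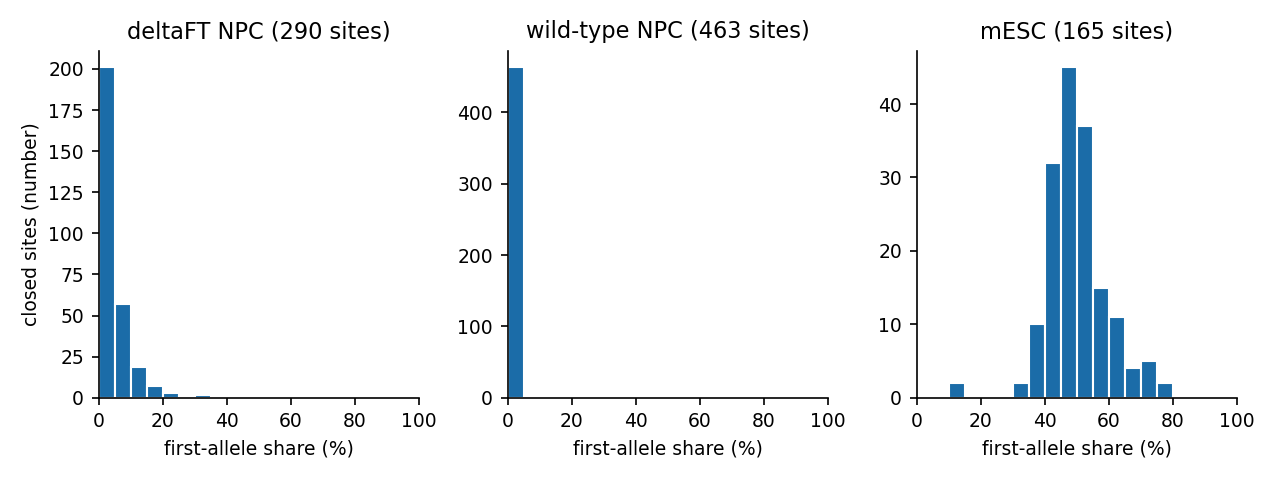
Number of closed sites (vertical axes, each with its own scale) by first-allele share of allelic reads (horizontal axes, percent, classes of 5 percentage points) in deltaFT NPC (290 sites), wild-type NPC (463 sites, chosen by this value) and mESC (165 sites), for sites with at least 10 allelic reads in each line. The sites stay near 0 in deltaFT NPC, with a median of 2.79%, and centre near 49% in mESC.

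Whether a closed site was found in mESC at all went with its strength in NPC. Of the 98 closed sites with under 75 raw reads, 12.2% were in the mESC IDR list, compared with 22.3% of those from 75 up to 150, 42.0% of those from 150 up to 300 and 72.4% (62.5% to 81.0%) of those with at least 300. Autosomal peaks in the same classes of raw reads were found in 9.08%, 16.5%, 30.7% and 62.1%. Sites read from both alleles were found in 5.88%, 35.0%, 51.1% and 87.0% (78.8% to 92.9%). Raw reads add both alleles, so equal raw reads are not equal depth per allele. In the 3 upper classes closed sites stood between the other sets. Their intervals overlapped those of sites read from both alleles in each class. With either mESC library list added, 53.6% (48.9% to 58.2%) of the closed sites had a stem cell peak. This was next to 80.5% (74.7% to 85.5%) of sites read from both alleles and 48.8% of autosomal peaks. With these lists the intervals from 150 up to 300 raw reads no longer overlapped. They were 50.3% to 68.6% for closed sites and 69.2% to 92.4% for sites read from both alleles.

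In deltaFT NPC most closed sites were found again, and under 5% first-allele reads were common there across chrX. Of the 463 sites 301 (65.0%, 60.5% to 69.4%) overlapped a deltaFT IDR peak, next to 67.9% of all wild-type NPC peaks with at least 10 allelic reads and 66.5% of chrX sites read from both alleles. With the library lists added, 417 (90.1%) did, next to 94.1% of sites read from both alleles and 90.4% of autosomal peaks. The 162 sites not in the IDR list were weak in wild type, with a median of 78 raw reads. Finding again rose with strength, to 94.9% of closed sites with at least 300 raw reads, against 95 of 100 sites read from both alleles and 95.9% of autosomal peaks. Between 150 and 300 reads the shares were 84.9% (77.2% to 90.8%), 63.8% (48.5% to 77.3%) and 76.7%.

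Of 290 closed sites with at least 10 allelic reads in deltaFT NPC, 201 (69.3%) had under 5% first-allele reads there, next to 61.9% of all 514 chrX sites usable in both lines. The same was true of 70 of 141 sites (49.6%) read from both alleles in wild type, so a low deltaFT share was not confined to the closed sites. Of the 290 sites 83 had 5% to 20% and 6 (2.07%, 0.763% to 4.45%) were read from both alleles. Among the 514 sites the share with at least 20% of each allele in deltaFT was 9.73%. The deltaFT interval lay wholly above 5% at 16 closed sites (5.52%), and at 14.4% of the 514 sites. The 290 closed sites are part of those 514.

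At sites chosen in wild type the residue was larger in deltaFT NPC than in wild-type NPC. The pooled share of the 290 sites was 3.82% (3.60% to 4.04%) in deltaFT, against 1.10% in wild type, on 1127 of 29518 and 292 of 26578 reads. A deltaFT peak matched to neighbouring sites was counted for each, so some deltaFT reads enter that total more than once. The deltaFT share was higher than the wild-type share at 199 sites, lower at 38 and equal at 53, where neither line had a first-allele read. No first-allele read was found at 71 sites in deltaFT, against 163 in wild type. Since low wild-type values chose these sites, some excess in any other library follows from the choice.

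Choosing the sites in deltaFT by the same rule turned the choice round. It gave 427 of 754 chrX sites, and 198 of the 312 with a usable wild-type peak were under 5% in both lines. Over all 312 sites, chosen for low deltaFT values, the pooled share was 2.26% in deltaFT NPC, against 20.5% in wild-type NPC. The direction of the pooled share thus went with the line in which sites were chosen. Their median wild-type share was only 1.97%, so the pooled wild-type value does not describe the typical site. Over the 198 sites under 5% in both lines the pooled share was 2.11% in deltaFT NPC, against 0.983% in wild-type NPC. Of the same 312 sites 69 (22.1%) had at least 20% of each allele in wild type, while 6 of 290 sites chosen in wild type had so in deltaFT. Each line is 1 sample, so this difference has no replicate check.

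The 6 sites closed in wild type with at least 20% of each allele in deltaFT rested on 23 to 73 deltaFT reads. At chrX:45561734-45562200 there were 8 and 15 reads in deltaFT NPC (34.8%, 16.4% to 57.3%), against 0 and 14 in wild type (upper bound 23.2%), so its intervals overlapped. For chrX:114413227-114413932 the counts were 15 and 30 in deltaFT (33.3%, 20.001% to 49.0%), against 2 and 47 in wild type (4.08%, 0.498% to 14.0%). That at chrX:8310097-8310390 had 17 and 56 in deltaFT (23.3%, 14.2% to 34.6%), against 3 and 89 (3.26%, 0.678% to 9.23%). At these last 2 the intervals did not overlap. Low wild-type values chose all 6 sites, and their deltaFT shares are the highest among the closed sites. Separate intervals therefore follow in part from the choice.

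The other 3 of the 6 had 6 first-allele reads each in deltaFT. Counts at chrX:104963333-104963526 were 6 and 17 in deltaFT, against 2 and 46 in wild type. Those at chrX:153029253-153029668 were 6 and 19, against 3 and 96, and the deltaFT interval of 9.36% to 45.1% lay above the wild-type bound of 8.60%. For chrX:110194884-110195289 they were 6 and 20, against 0 and 12, with overlapping intervals.

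By stretches of 20 Mb the deltaFT residue of closed sites ran from 2.32% (1.86% to 2.85%) at 60 to 80 Mb to 8.42% (7.14% to 9.84%) at 100 to 120 Mb. The stretch at 100 to 120 Mb held 17 sites with 143 of 1699 first-allele reads, and 10 of them had at least 5%. Of its first-allele reads 47 came from the site at chrX:119510724-119511253, which had 275 allelic reads. Without that site the share was 6.74% (5.49% to 8.17%), above the intervals of the 7 stretches from 0 to 100 Mb and from 120 to 160 Mb. A few sites carried much of this: 3 sites at 110 to 120 Mb had 68 of 346 reads (19.7%), while the 14 sites at 100 to 110 Mb had 5.54% (4.38% to 6.90%), an interval that overlaps those of other stretches. In wild-type NPC the same 17 sites had 2.07%, against 0.604% to 1.13% in those 7 stretches. The 6 sites beyond 160 Mb had 3.96% (2.50% to 5.93%) in deltaFT NPC, against 2.46% in wild type.

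In the male TXY lists closed sites were found less often than NPC peaks in general. Of the 463 sites 200 (43.2%) overlapped a peak of the deltaRepA list with dox, 197 (42.5%) of the deltaRepA list without dox, 178 (38.4%) of the TXY WT list with dox and 210 (45.4%) of the TXY WT list without dox. Over all wild-type NPC peaks with at least 10 allelic reads these shares were 55.6%, 54.5%, 56.3% and 59.4%. All 4 lists held 169 closed sites (36.5%), next to 48.4% of those peaks, and none held 239 (51.6%), next to 34.9%. The other 55 were in some but not all.

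The female and male stem cell lists overlapped widely at closed sites. All 166 sites of the mESC IDR list were in at least 1 TXY list. Of all NPC peaks with at least 10 allelic reads, 0.0472% were in the mESC IDR list and in no TXY list, so this was general. With the mESC library lists added, 214 closed sites were in both an mESC and a TXY list, 34 in an mESC list but no TXY list and 10 in a TXY list but no mESC list. Present in deltaFT NPC, wild-type NPC, mESC and all 4 TXY lists were 135 sites (29.2%), next to 30.0% of NPC peaks in general, with a median of 297 raw reads in wild-type NPC. At the other end 205 (44.3%, 39.7% to 48.9%) overlapped no peak of any mESC or TXY list, library lists included, next to 34.1% of NPC peaks in general. Their median was 108 raw reads, and 96 of them were in the deltaFT IDR list. Of the 205 sites 39 were also in no deltaFT list, with a median of 51.

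The 5 strongest sites absent from every stem cell list had first-allele shares from 1.53% to 9.09% in deltaFT NPC, so not all were under 5% there. At chrX:95575643-95576206 there were 3 and 193 reads in deltaFT NPC, against 0 and 207 in wild-type NPC. Counts at chrX:65898357-65898976 were 2 and 64 in deltaFT, against 2 and 100 in wild type. For chrX:82017349-82018026 they were 3 and 40 (6.98%), against 0 and 71. At chrX:58078464-58079236 the values were 12 and 121 in deltaFT (9.02%, 4.75% to 15.2%), against 2 and 79 in wild type (2.47%, 0.300% to 8.64%), with overlapping intervals. The strongest of all by raw reads, chrX:161201818-161202347 with 529, had too few allelic reads to say more, 1 and 10 (9.09%) against 0 and 12.

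Relative to autosomal peaks with like raw reads in NPC, weak closed sites were found less often in the male lists. In the TXY WT list without dox it was 17.3% (10.4% to 26.3%) of closed sites with under 75 raw reads against 40.4% (38.8% to 41.9%) of autosomal peaks, and 35.1% (27.5% to 43.4%) against 51.3% between 75 and 150. From 150 reads on the intervals met or overlapped, 52.9% (43.6% to 62.2%) against 57.2% and, at 300 or more, 79.6% (70.3% to 87.1%) against 77.6%. Male cells carry a single X and paired autosomes, so copy number and the state of the site cannot be told apart here. Sites read from both alleles were found in 26.5%, 67.5%, 70.2% and 90.0% of the 4 classes.

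**Figure D4:**
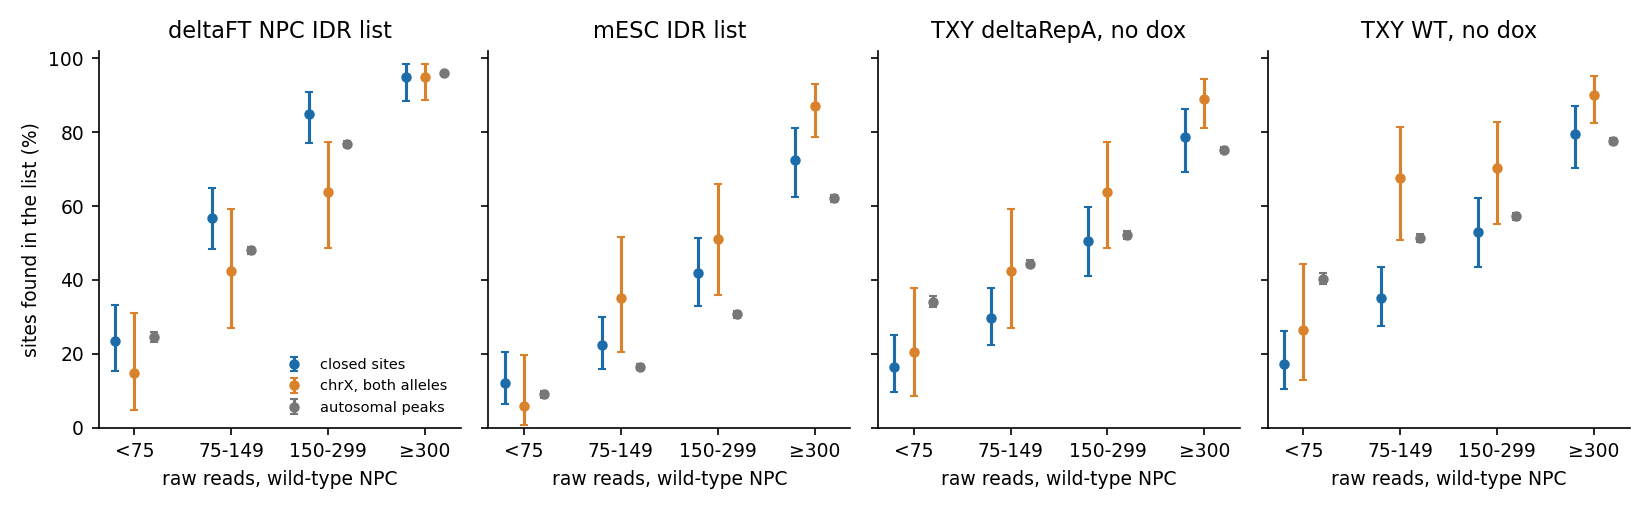
Percent of sites found in each list (vertical axis) by raw reads of the site in wild-type NPC (horizontal axis), for closed sites, chrX sites read from both alleles and autosomal peaks with at least 10 allelic reads; bars are exact 95% intervals. All sets are found more often the stronger they are, and the weakest closed sites are found less often than autosomal peaks in both TXY no-dox lists (17.3% against 40.4% in TXY WT).

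Induction of Xist in the male cells allowed the same sites to be followed on a single X over 48 hours. Of 188 no-dox peaks of TXY deltaRepA whose best overlap in NPC was a closed site, 180 (95.7%, 91.8% to 98.1%) were kept with dox, next to 93.3% of all no-dox peaks lying over a wild-type NPC peak. In TXY WT 165 of 201 (82.1%, 76.1% to 87.1%) were kept, next to 90.0%. The sites read from both alleles gave 96.3% (91.5% to 98.8%) in TXY deltaRepA and 79.9% (72.5% to 86.0%) in TXY WT. Sites closed on the inactive X of progenitors and sites open on both X chromosomes there thus kept like shares of peaks, with overlapping intervals.

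The peaks lost were weak ones. In the authors' −log10 p, all 8 lost deltaRepA peaks were under 10, as were 32 of the 36 lost TXY WT peaks. Under 10, 50 of 58 (86.2%, 74.6% to 93.9%) deltaRepA peaks over closed sites were kept, next to 83.6% of autosomal peaks. In TXY WT it was 14 of 46 (30.4%, 17.7% to 45.8%), next to 66.5% (65.1% to 67.8%) of autosomal peaks. Over sites read from both alleles TXY WT kept a like share, 14 of 40 (35.0%, 20.6% to 51.7%), so the low share was not particular to closed sites. From 10 to 20 TXY WT kept 41 of 44 (93.2%, 81.3% to 98.6%), next to 98.6% of autosomal peaks. From 20 to 40 it kept 65 of 66, and at 40 or more all 45. Presence in a list therefore could not show a partial loss at strong sites.

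**Figure D5:**
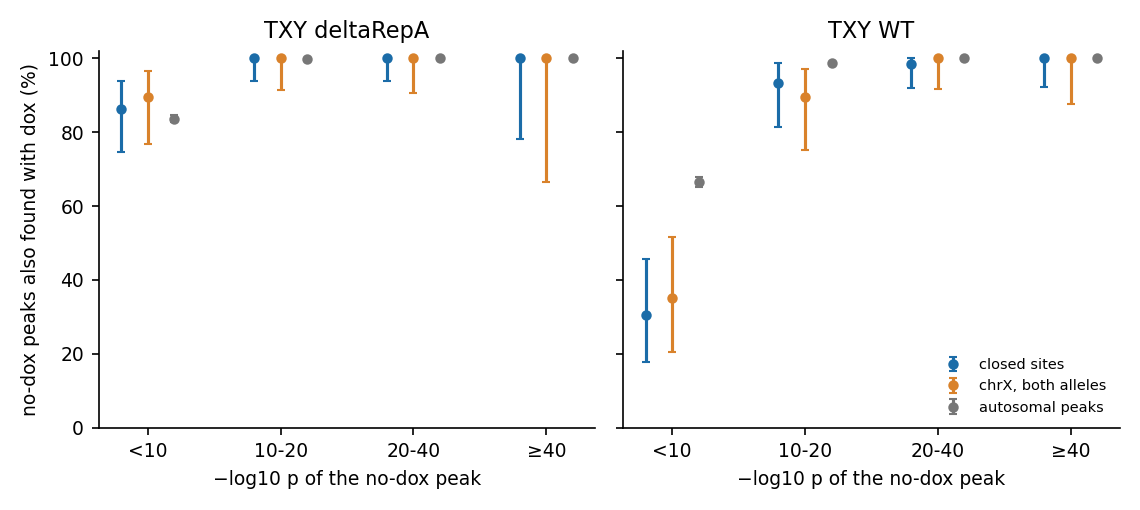
Share of peaks of the no-dox list kept with dox in percent (vertical axis) by −log10 p of the no-dox peak (horizontal axis) in TXY deltaRepA and TXY WT, for peaks over closed sites, over chrX sites read from both alleles and over autosomal peaks; bars are exact 95% intervals. Below 10, TXY WT kept 30.4% of peaks over closed sites, 35.0% over sites read from both alleles and 66.5% of autosomal ones. TXY deltaRepA kept 86.2%, 89.4% and 83.6% in that order.

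The same sites could be followed in both genotypes. Of 191 closed sites present in both no-dox lists, 3 (1.57%, 0.325% to 4.52%) were lost with dox in deltaRepA alone, 15 (7.85%, 4.46% to 12.6%) in TXY WT alone, 4 in both and 169 in neither. Of 136 such sites read from both alleles in NPC, 2 were lost in deltaRepA alone and 11 (8.09%, 4.11% to 14.0%) in TXY WT alone. Of 17242 autosomal sites 2.72% were lost in deltaRepA alone and 2.74% in TXY WT alone. On chrX more sites were therefore lost in TXY WT alone than in deltaRepA alone, among closed sites and among sites read from both alleles, while on the autosomes the numbers were near equal. The intervals of the 2 genotypes just overlapped for closed sites. Both counts come from the same 191 sites, and separate intervals ignore that pairing. The whole deltaRepA list held 142526 peaks with dox, against 129055 without, and the TXY WT list 125498 with dox, against 139825 without. On chrX alone the deltaRepA list held 2442 peaks with dox, against 2504 without, and the TXY WT list 1462, against 2377. The part of list size in these losses was not tested, and each condition is 1 merged list without a replicate.

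The 15 closed sites lost with dox in TXY WT and present in both deltaRepA lists had a median of 108 raw reads in wild-type NPC (range 35 to 468). Of the 5 with the highest −log10 p without dox in TXY WT, the first, chrX:99137785-99138134, had a −log10 p of 7.11 with and 11.2 without dox in deltaRepA, and of 23.3 without dox in TXY WT. It had 2 and 13 allelic reads in deltaFT NPC, against 1 and 20 in wild-type NPC, and 9 and 11 in mESC. The next, chrX:82105482-82105987 and chrX:12450835-12451190, both had 16.6 in TXY WT without dox. The last 2, chrX:138623927-138624148 and chrX:91870520-91870797, had 9.09 and 8.34. Values of −log10 p were not compared between lists.

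Sites also found in female mESC were kept more often. Of 163 closed sites in the TXY WT no-dox list and the mESC IDR list 93.9% (89.0% to 97.0%) were kept with dox, against 48.9% (34.1% to 63.9%) of 47 sites not in the mESC list. Their median −log10 p without dox was 28.4 against 7.62, and the part of peak strength in this contrast was not tested.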

How the data were processed

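Per the submitters' processing notes, cutadapt, Bowtie2 and MACS2 were used with build mm9. No source used here gives versions, settings, duplicate handling, any Tn5 shift or the way reads were assigned to alleles. In the deposited IDR lists each peak has a raw read count and a read count per allele. Whether these cover 1 library or both is not stated. The TXY lists come from merged libraries. Their deposited −log10 p and q values and fold enrichment (a ratio over background) are the authors' MACS2 values, of which p and q were used within a list alone. The mESC sample's source label names progenitors, while its title and growth medium name mESC, which was taken. For both plus-dox samples the description names a no-dox file; titles were followed.

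Nearly all start positions of the IDR lists match those of the zero-based library lists, so 1 was added. Each site was matched to the peak sharing most bases with it, at least 1 bp. Shares carry exact Clopper-Pearson intervals, and the count behind a 0 was 3. With 1 sample per group no test between groups was made and no p-value computed. Matching, classing and intervals were tested on simulated data. Python 3.11.15, numpy 2.4.6, pandas 2.3.3, scipy 1.17.1 and matplotlib 3.10.9 were used. Sites named are the strongest, those nearest the 5% limit, and the extremes of deltaFT, mESC and TXY values, by the rule of the design; the closest pairs, the 10 and 20 Mb windows and single sites named beside them were chosen after their values were seen. The sites and lists were chosen with earlier results of these data known. Marker genes could not be placed on mm9 here, so cell types rest on the labels.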

Additional observations from a re-analysis of the deposited data

How the results depend on the processing

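Of 68 alternative values for 9 results, 52 stayed within the interval of the value reported (for the number of sites, within 1.5 times), and 16 moved. The median first-allele shares in deltaFT NPC and mESC, and the shares of sites read from both alleles there, stayed within their intervals under every alternative tried. With at least 40 allelic reads there were 256 closed sites, of which 47.3% overlapped an mESC IDR peak and 79.3% a deltaFT IDR peak; with at least 20 the deltaFT overlap was 70.3%. Asking for an overlap of 50% of each peak gave 29.4% in mESC, 59.2% in deltaFT NPC and 91.5% kept with dox in TXY deltaRepA. The mESC overlap was 48.6% and 50.3% with the library 1 and 2 lists, and 53.6% with any mESC list; the deltaFT overlap was 90.1% with any deltaFT list. With TXY peaks of −log10 q of at least 5, 88.0% were kept in TXY deltaRepA and 73.5% in TXY WT. Among sites with both alleles in mESC, an alternative added after seeing the data, 88.3% overlapped a deltaFT IDR peak and 98.7% and 92.8% were kept with dox in TXY deltaRepA and TXY WT. The cause of these shifts was not tested. No paired analysis of replicate samples was possible because each group is 1 sample. Allelic depth limits single sites: the interval reached 20% at 79 closed sites and stayed under 5% at 89.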
